A study of Mus musculus with 8 samples.

Results

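The transcripts of the cytosolic ribosomal proteins were followed in embryonic mouse kidneys with and without p53. A gene was a member when its protein-coding symbol in the RefSeq annotation was Rpl or Rps with a number (paralogs with an l, x or a and a digit included), or Rplp0, Rplp1, Rplp2 or Rpsa. The kinases named Rps6k and all pseudogenes were left out. Of 84 such symbols in the annotation, 82 had a probe on the array (117 of 41174 probes), and 78 genes could be tested (108 probes), 47 of the large and 31 of the small subunit. All RNA came from embryonic kidney at embryonic day 15.5 on the strain C57BL/6, and the 2 groups differ, per the labels, only in genotype (p53 null or p53 wild type). Each of the 8 arrays carried null RNA in one dye (Cy3 or Cy5) and wild-type RNA in the other, and each dye arrangement was repeated with the dyes exchanged. They make up 3 replicates, which the series' design text calls biological, with 4 arrays for replicate 1 and 2 each for replicates 2 and 3. The labels name neither the p53 allele nor the number of embryos behind an RNA, nor whether embryos were pooled.

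Ribosomal proteins clothe the ribosomal RNA of both ribosome subunits and are needed in nearly equal numbers. Their mRNAs are among the most abundant of a growing cell and share a terminal oligopyrimidine (TOP) tract, an uninterrupted run of C and T at the transcript's first bases, through which mTORC1 and the RNA-binding protein Larp1 set how much of them is translated. Ribosomal proteins that are not built into a ribosome can bind Mdm2, the ubiquitin ligase that keeps p53 low, and so tie ribosome assembly to p53; in mice and humans, partial loss of several of these genes raises p53 in blood precursors and other embryonic cells.

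The start sites of several members are shown because this run is the sequence that the genes of both subunits are known to have in common. RefSeq start sites on GRCm38.p6 could be matched for 59 of the 78 genes. The windows are printed 5′ to 3′ on the gene's strand, with 15 bases before the annotated start and 15 from it on, and the longest run of C and T is in capitals; of several annotated starts, the one with the longest run is shown. The first 4 belong to genes with low null over wild-type ratios, and the other 4 to genes at or above 0 or near it. These genes are a choice: low genes with short runs, such as Rpl37a (longest run 4) and Rpl36a (5), are not shown. In Rpl5, Rpl7l1 and Rps27l the capitals lie wholly before the annotated start.
Rpl22l1 (chr3:28805493-28805522, plus strand): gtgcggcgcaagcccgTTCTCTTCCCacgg
Rps18 (chr17:33955651-33955680, minus strand): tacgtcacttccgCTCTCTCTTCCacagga
Rplp2 (chr7:141447636-141447665, plus strand): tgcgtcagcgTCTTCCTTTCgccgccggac
Rps27 (chr3:90213634-90213663, minus strand): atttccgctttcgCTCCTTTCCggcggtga
Rpl5 (chr5:107900513-107900542, plus strand): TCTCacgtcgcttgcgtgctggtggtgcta
Rps10 (chr17:27635230-27635259, minus strand): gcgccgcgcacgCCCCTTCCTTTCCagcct
Rpl7l1 (chr17:46782642-46782671, minus strand): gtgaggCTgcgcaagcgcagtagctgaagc
Rps27l (chr9:66946071-66946100, plus strand): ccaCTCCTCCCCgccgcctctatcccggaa
A run of at least 8 C or T lay between 20 bases before and 30 bases after a start in 33 of the 59 genes (55.9%), against 21.3% of 17492 protein-coding genes with a start site in the same table. The motif CCGGAAG, searched on both strands over the 250 bases before and 50 after the start, was found in 40.7% of the 59 genes and in 12.9% of all. The letters TATAAA (both strands) were found in 11.9% against 14.8%, and CACGTG, which reads the same on both strands, in 10.2% against 8.91%. Runs and motifs can overlap, and a gene with several annotated starts counted when any of them matched. The run was found in 51.9% of the 27 matched genes with a ratio below 0 in each replicate and in 59.4% of the other 32.

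The 3 replicates do not stand on equal ground. Replicate 1 was on slide 1 and replicates 2 and 3 on slide 2, and only slide 1 was read with 2 scan ranges, so slide and replicate 1 cannot be told apart. Spread between arrays was taken over 12288 tested probes with a mean log2 intensity of 8 or more, from the scanner program's processed signals. It is the median absolute deviation of the log2 difference, scaled to a standard deviation. A shift shared by all probes drops out of it. For the wild-type signals of replicates 2 and 3 it was 0.0972 (Cy3) and 0.0916 (Cy5). This was close to the 0.0643 to 0.0849 between repeat arrays of the RNAs of replicate 1. For the null signals of replicates 2 and 3 it was 0.174 (Cy5) and 0.224 (Cy3). The labels do not say whether replicates 2 and 3 share wild-type RNA, and a p-value over the 3 measures only the spread between these samples. The brighter Trp53 probe had a log2 ratio of −0.67 ± 0.36 (SD, n = 3), below 0 on all 8 arrays (limma, adjusted p = 0.279), and a second probe had 0.16; the labels do not say which exons the allele lacks. Of the 14 kidney markers 13 were tested, among them Pax2, Six2 and Wt1, which were well above background in both genotypes on all 8 arrays. Of the 13, 8 had a mean below 0 (48.7% of all tested probes), with medians of −0.05, −0.06 and −0.01 in replicates 1, 2 and 3. Single markers moved both ways between replicates. Foxd1 had 0.13, −0.56 and −0.92 and Six2 had −0.02, −0.45 and −0.46, whereas Cited1 had −0.23, 0.45 and 0.51.

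Markers of other cell types moved with the replicates too. The counts of means above 0 given here stand beside 51.3% of all tested probes. All 6 tested of 7 macrophage and leukocyte markers had means above 0. Their summed signals over the arrays were 2025 to 3443 in null and 1812 to 1982 in wild type. All 4 tested of 8 liver markers had means above 0 (2320 to 4922 against 1585 to 3081). Alb, Fgg, Apoa1 and Ttr were not among the tested probes. In replicate 1, however, 3 of the 4 liver markers and 2 of the 6 macrophage and leukocyte markers were below 0. In replicates 2 and 3 there were 0 below it in either list. Of 7 tested of 13 erythroid markers 4 were above 0 (46898 to 75293 against 55374 to 81837), but on slide 2 several had ratios far from 0, on both sides of it. The embryonic globin genes Hbb-y and Hba-x had −2.44 and −1.90 in replicate 2 and −2.76 and −2.15 in replicate 3, whereas Alas2, of haem synthesis, and Slc4a1, the red cell anion exchanger, had 1.62 and 1.59 in replicate 2 and 2.01 and 1.85 in replicate 3. In replicate 1 these 4 genes lay between −0.53 and 0.46. Of 7 proliferation markers, all tested, 3 were above 0 (46848 to 60317 against 41673 to 55589). Adrenal (3 tested of 7) and gonad markers (4 of 6) were above 0 for 2 and 1 genes, with sums of 383 to 557 against 338 to 749 and of 2338 to 2640 against 2477 to 5665. The part of these cells in the ribosomal protein ratios was not tested, and in whole kidneys fewer cells of a type and less RNA per cell cannot be told apart.

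The ratio of null over wild-type RNA of a typical ribosomal protein gene lay slightly below 1, and it did so in replicates 2 and 3 but not in replicate 1. Each gene is given by 1 probe, the tested one with the highest mean intensity, and its ratio on the log2 scale, null over wild type, is 0 at equal levels. The median over the 78 genes was −0.20, or 87.0% of the wild-type level, after loess normalization of each array, and it was −0.10 with the scanner program's own processed signals and 0.11 when arrays were only centred on their medians, a step that moved the median of all 20865 tested probes from 0.01 to 0.12. By replicate the median was 0.00, −0.31 and −0.29 for replicates 1, 2 and 3, that is about the wild-type level in replicate 1 and 80.4% and 81.8% of it in the other two. The large subunit gave medians of 0.00, −0.35 and −0.23 and the small subunit 0.00, −0.31 and −0.34.

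Counted by sign after loess, 73 of the 78 genes had a mean below 0, against 48.7% of all tested probes. This count was 62 with the processed signals (49.6% of all tested probes) and 16 with median centring (26.7% of all tested probes). In replicate 1, 39 genes were below 0 (52.5% of all probes), in replicate 2 there were 75 (47% of all probes) and in replicate 3 there were 71 (46.2% of all probes). A ratio below 0 in each of the 3 replicates was seen in 34 genes (19.4% of all probes), 21 of the large and 13 of the small subunit, and a ratio above 0 in each in Rpl7l1 alone (21% of all probes). Another 37 genes were above 0 in replicate 1 and below 0 in both others, and 2 genes, Rps19 and Rps27l, had the opposite order.

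**Figure D1:**
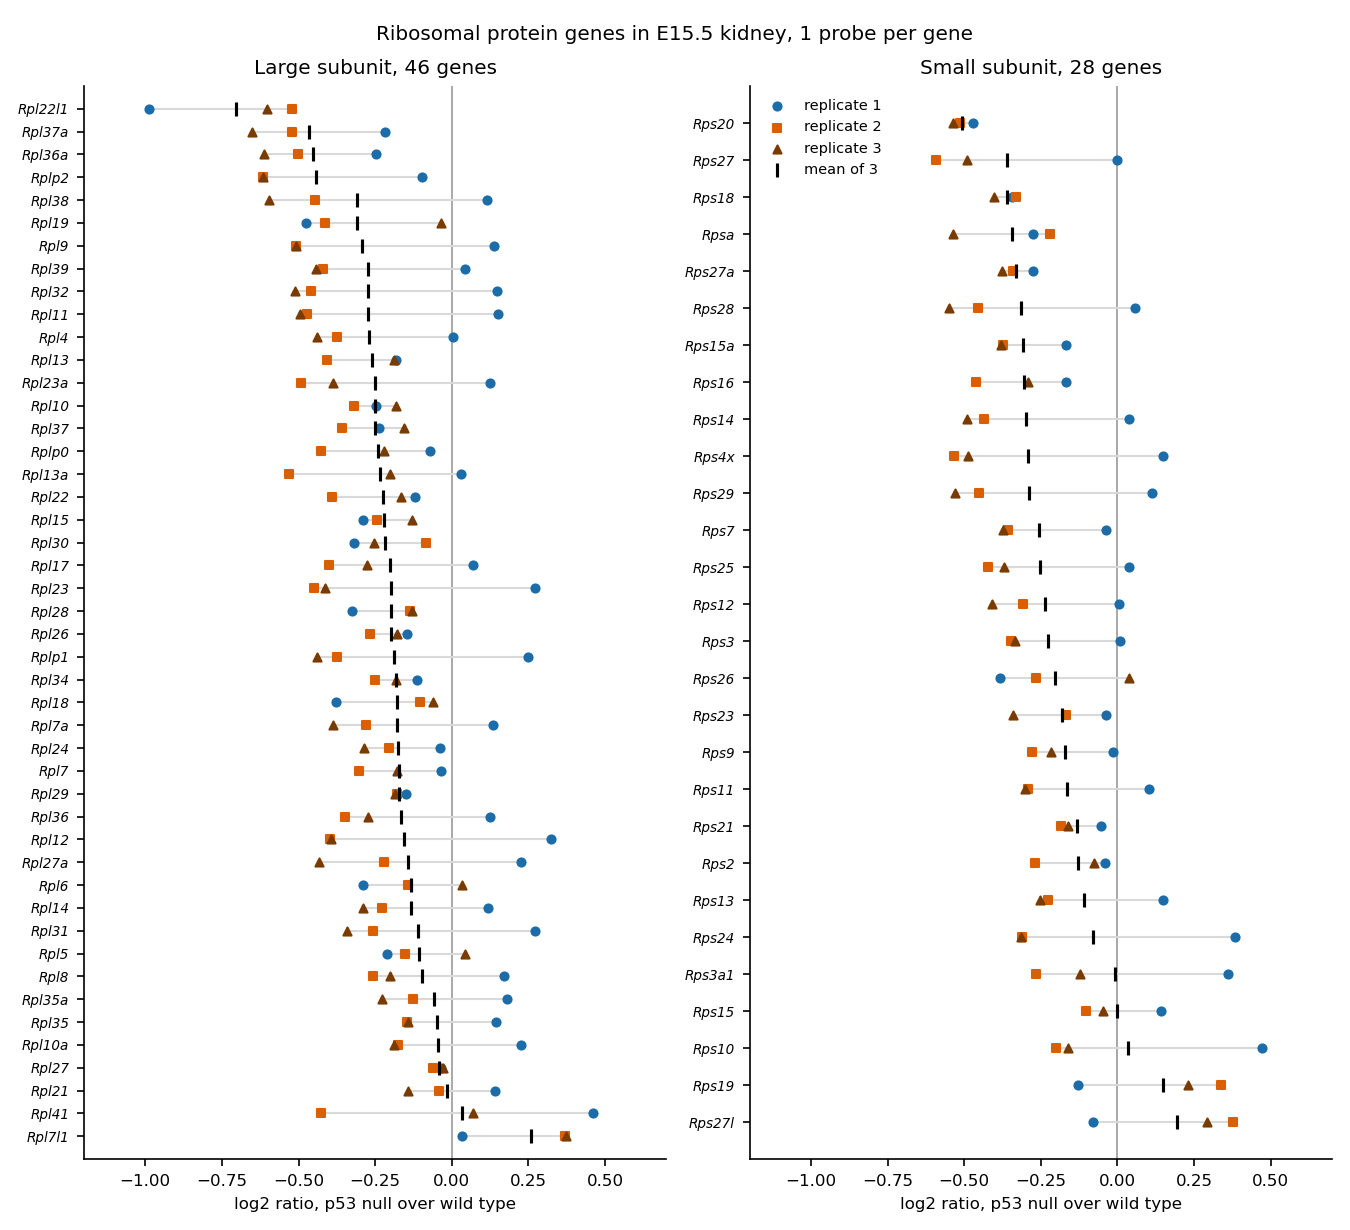
Log2 ratios of null over wild type (x axis) of 74 of the 78 tested ribosomal protein genes (rows), 46 of the large subunit on the left and 28 of the small on the right, sorted by their mean; points are the 3 replicates, the black tick is their mean and the grey line their range. Over all 78 genes, replicate 1 is above both others for 59 and below both for 13, with medians of 0.00, −0.31 and −0.29 after loess; under median centring without loess the median over the genes is 0.11 in place of −0.20.

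No ribosomal protein gene passed limma's test against 0 over the 3 replicates at an adjusted p of 0.05 (0% of 20865 probes passed), and 17 of 78 had an unadjusted p under 0.05, all 17 with a ratio below 0. Among all probes 17.2% had such a p, 8.15% below 0 and 9.02% above. A ratio below 0 on all 8 arrays was found for 7 genes, among them Rpl10, Rpl13, Rpl30, Rpl36a, Rps20 and Rps27a, a share of 8.97% that is close to the 7.48% of all tested probes. The genes ranged from 61.4% of the wild-type level (Rpl22l1) to 120% (Rpl7l1), and 10 lay at or under 80%.

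Without replicate 1, 65 genes passed with lower and 3 with higher levels in null (25.2% and 30.8% of all tested probes, limma with Benjamini-Hochberg adjustment). The 3 were Rpl7l1, Rps27l and Rps19. The 10 that did not pass were Rpl18, Rpl21, Rpl27, Rpl28, Rpl35, Rpl41, Rpl5, Rpl6, Rps15 and Rps26. That fit rests on 2 replicates of 1 slide that may share a wild-type RNA, and it called 56.1% of all tested probes. Set directly against replicate 1, replicates 2 and 3 differed at an adjusted p under 0.05 for 45 of the 78 genes (44.4% of all probes), 40 of them lower and 5 higher on slide 2; with the scanner program's processed signals this count was 3. Slide 1 holds 1 replicate, so the only spread in that comparison is the one between replicates 2 and 3, and its p-values say nothing of how far replicate 1 itself could vary; differences between slides are therefore given for single genes as values with no test.

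The dyes divided the arrays of slide 2 further. On the 4 arrays of replicate 1 the median over the genes was 0.02 and −0.01 with null RNA in Cy5 and −0.03 and −0.05 with it in Cy3. Replicate 2 gave −0.10 with null RNA in Cy5 and −0.53 with it in Cy3, and replicate 3 gave −0.05 and −0.48. On slide 2 the median was thus below 0 in both dye arrangements, but of different size. Between the arrangements of replicate 2, 62 of 78 genes were lower with null RNA in Cy3, and in replicate 3 there were 63, against 46 in replicate 1. The dye effect, taken as the difference between the Cy5 arrangement and the mean of both, is above 0 where null RNA in Cy5 reads higher; it had a median of 0.19 and 0.18 over the genes in replicates 2 and 3 and of 0.02 over all tested probes in each.

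Among the ribosomal protein genes, brightness went with the dye effect in replicates 2 and 3, here after loess. The genes' mean log2 intensity ran from 9.20 to 16.7 with a median of 15.4, and 60 genes lay at 14 or more, where their 74 probes made up 17.0% of all tested probes. For these 60 the dye effect was 0.26 and 0.24 in replicates 2 and 3, and the median ratios were −0.03, −0.36 and −0.29 in replicates 1, 2 and 3. The 18 dimmer genes had dye effects of −0.02 and −0.00, and their median ratios were 0.04, −0.21 and −0.27. The 362 other probes at or above the same brightness had dye effects of 0.02 and 0.01 and median ratios of −0.00, −0.06 and −0.03. The 18 dimmer genes thus had dye effects near 0 and medians below 0 in replicates 2 and 3.

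**Figure D2:**
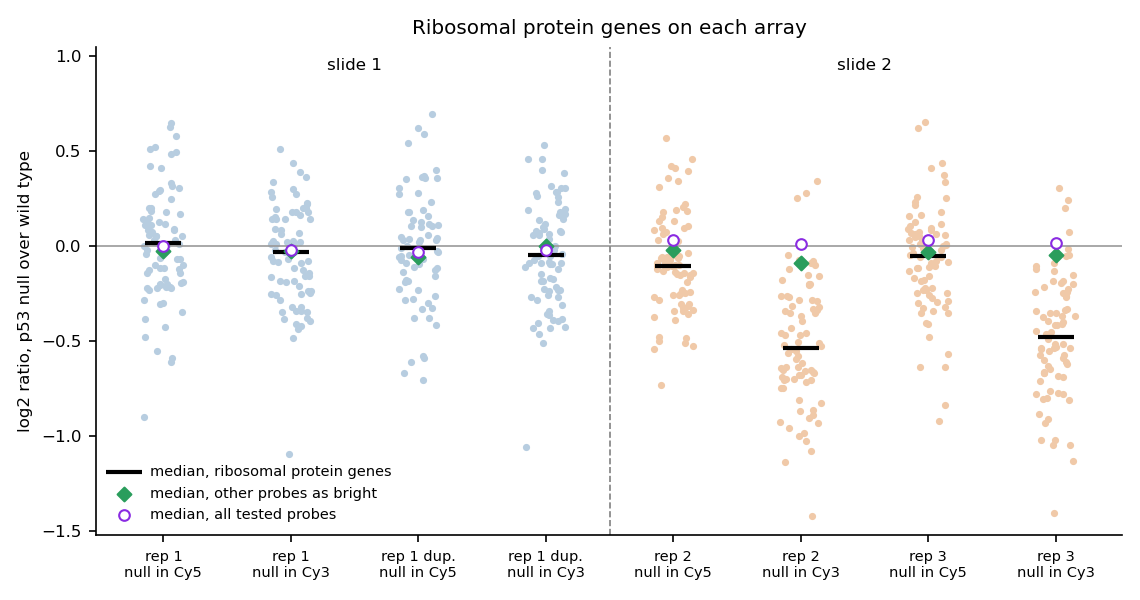
Log2 ratios of null over wild type (y axis) of the ribosomal protein genes on each of the 8 arrays, after loess; each pale point is a gene, the black bar the median over the genes, the green diamond the median of 362 other probes at a log2 intensity of 14 or more and the open circle that of all 20865 tested probes. The bars of slide 1 lie between −0.05 and 0.02, and those of slide 2 at −0.10 and −0.05 with null RNA in Cy5 and at −0.53 and −0.48 with it in Cy3; with median centring in place of loess the medians of replicates 2 and 3 are above 0.

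The way the 2 colours were balanced changed the sign of the median. With median centring alone the median over the genes was −0.08, 0.16 and 0.20 in replicates 1, 2 and 3, and that of all tested probes was −0.11, 0.23 and 0.29. Relative to all tested probes, the genes' median lay at 0.01, −0.33 and −0.32 after loess and at 0.03, −0.07 and −0.09 with median centring. Relative to the 362 other probes at a log2 intensity of 14 or more, which 18 of the 78 genes do not reach, the median of the ribosomal protein genes was 0.01, −0.26 and −0.26 after loess. The same distance was 0.01, −0.24 and −0.22 with the processed signals and 0.00, −0.28 and −0.26 with median centring. Loess is fitted on all probes of an array but the control spots, ribosomal protein probes included.

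**Figure D3:**
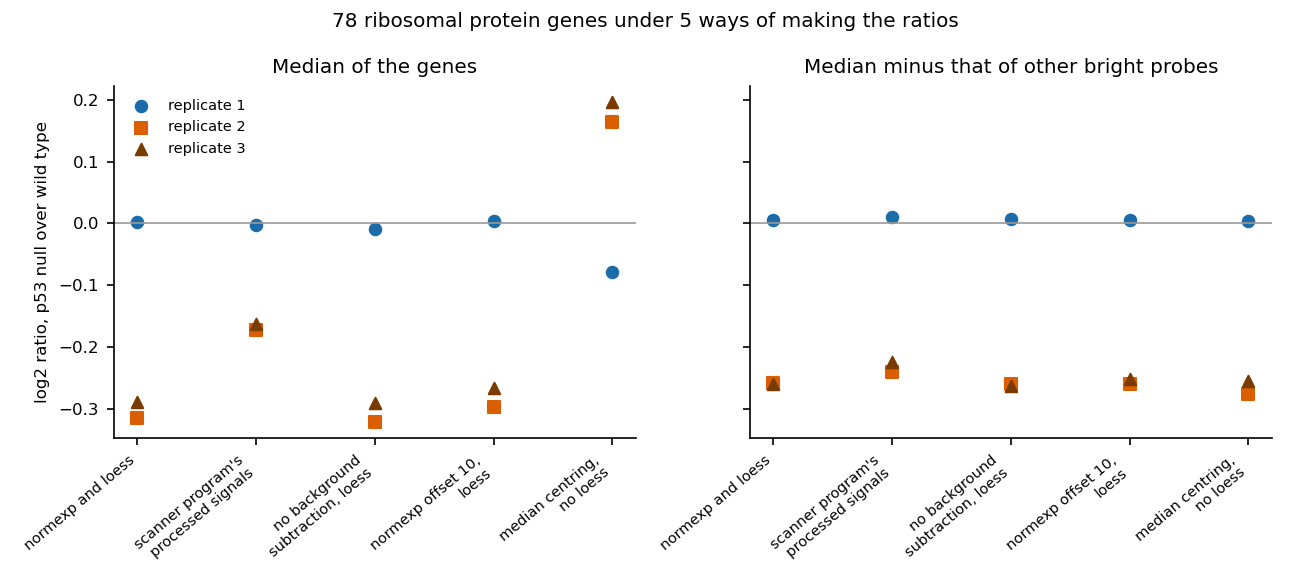
Median log2 ratio of null over wild type of the 78 ribosomal protein genes by replicate (y axis) under 5 ways of making the ratios (x axis), on the left as it is and on the right after subtracting the median of 362 other probes at a log2 intensity of 14 or more. On the left, replicates 2 and 3 lie between −0.32 and −0.16 under 4 of the 5 and at 0.16 and 0.20 with median centring; on the right they lie between −0.28 and −0.22 under all 5, and replicate 1 between 0.00 and 0.01.

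Among the members, the 13 proteins listed as known to bind Mdm2 were taken first by role. Their median ratios of 0.00, −0.36 and −0.37 in replicates 1, 2 and 3 lay near those of the 78. After loess 12 of 13 had a mean below 0, as had 73 of the 78 genes and 48.7% of all tested probes. With median centring 10 of 13 were above 0, while 16 of the 78 genes and 26.7% of all tested probes were below it. Rps20, a protein of the small subunit's head, had −0.47, −0.51 and −0.54 in the 3 replicates, a mean of −0.51 ± 0.03 (SD, n = 3) or 70.3% of wild type. It was below 0 on all 8 arrays, from −0.71 to −0.28, and had the smallest p of all members in limma's test, with an adjusted p of 0.279. Its ratio stayed below 0 with the processed signals (−0.36) and with median centring (−0.20).

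Rpl5 and Rpl11 form, with 5S RNA, the particle that binds Mdm2 most firmly when ribosome assembly stalls. Rpl5 had −0.21, −0.15 and 0.04 in the 3 replicates, and on slide 2 its arrays with null RNA in Cy5 gave 0.39 and 0.62 while those in Cy3 gave −0.70 and −0.54. Its mean of −0.11 ± 0.13 (SD, n = 3) has therefore no settled sign, and it was 0.06 with the processed signals. Rpl11 had 0.15, −0.47 and −0.49, with both dye arrangements of a replicate on the same side of 0, and slide 2 minus replicate 1 was −0.63. Rpl23 went the same way with 0.27, −0.45 and −0.41, and a second Rpl23 probe gave 0.14, −0.33 and −0.39.

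The other Mdm2 binders lay between these patterns. Rps27, at 0.00, −0.59 and −0.49, and Rps14, at 0.04, −0.44 and −0.49, were low on slide 2 only, and Rps14 read 0.21 and 0.07 there with null RNA in Cy5 against −1.08 and −1.05 in Cy3. Rps3, Rps7 and Rps25 had means of −0.23, −0.26 and −0.25, each within 0.04 of 0 in replicate 1. A second Rps3 probe differed, with 0.56, −0.26 and −0.07 in replicates 1, 2 and 3 and a mean of 0.08. Rpl26, which also binds the p53 mRNA, had −0.15, −0.27 and −0.18, but only its 4 arrays with null RNA in Cy3 were below 0. Rpl37 had −0.24, −0.36 and −0.15, with a second probe at a mean of −0.04, and Rps15 had 0.14, −0.10 and −0.05, a spread that holds 0.

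The stalk of the large subunit, where elongation factors dock, is built on Rplp0 with dimers of Rplp1 and Rplp2. Rplp2 had −0.10, −0.62 and −0.62 in the 3 replicates, a mean of −0.44 ± 0.30 (SD, n = 3) or 73.6% of wild type. Its arrays of slide 2 gave −0.23 and −0.18 with null RNA in Cy5, and those with it in Cy3 went down to −1.05. Rplp1 had 0.25, −0.38 and −0.44, above 0 on slide 1 and below 0 on slide 2 in both dyes. Rplp0 had −0.07, −0.43 and −0.22, and its second probe 0.28, −0.44 and −0.49. Rpl12, which sits at the base of the stalk, had 0.32, −0.40 and −0.39, and read 0.19 and 0.23 on slide 2 with null RNA in Cy5 against −0.99 and −1.02 in Cy3. Slide 2 minus replicate 1 was −0.25, −0.66 and −0.52 for Rplp0, Rplp1 and Rplp2.

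Rpsa, a small-subunit protein also known as a laminin receptor, had −0.27, −0.22 and −0.54, with a second probe at 0.20, −0.18 and −0.33. Both probes were below 0 on slide 2, and their signs differed on slide 1.

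Paralog pairs gave the widest range. Rpl22 encodes an RNA-binding large-subunit protein that is known to hold down the transcript of its paralog Rpl22l1. Rpl22l1 had −0.99, −0.52 and −0.60 in the 3 replicates, a mean of −0.70 ± 0.25 (SD, n = 3) or 61.4% of wild type, the lowest of all members (limma, adjusted p = 0.279). All 7 arrays with a value were below 0, from −1.10 to −0.31, and the lowest were those of replicate 1, the replicate in which most members stood near 0. Its ratio was −0.69 with the processed signals and −0.44 with median centring. Rpl22 had −0.12, −0.39 and −0.16, and its dimmer second probe −0.10, −0.94 and −0.81, so both genes had ratios below 0 in each replicate, of different size. Slide 2 minus replicate 1 was 0.43 for Rpl22l1.

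Rps27l, the paralog of Rps27, is a known transcriptional target of p53. It had −0.08, 0.38 and 0.29 in the 3 replicates (mean 0.20 ± 0.24, SD, n = 3; 115% of wild type), and all 4 arrays of slide 2 were above 0, from 0.24 to 0.41. Rps27 on the same arrays was below 0, from −0.92 to −0.26. In replicate 1 the genes lay at −0.08 and 0.00. The slide difference was 0.42 for Rps27l and −0.54 for Rps27.

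Rpl7l1, a relative of Rpl7 that acts in assembly of the large subunit, had the highest mean of all members, 0.26 ± 0.19 (SD, n = 3), with 0.03, 0.37 and 0.37 in the replicates. On slide 2 its arrays ran from 0.28 to 0.46, and a dimmer second probe gave 0.12, 0.01 and 0.03, so its 2 probes differed in size. Rpl7 had −0.03, −0.30 and −0.18, and its 2 other probes had means of −0.08 and −0.06. Rpl39 had 0.04, −0.42 and −0.44; its paralog Rpl39l, a testis form, and Rpl3l, the striated-muscle form of Rpl3, were at no time well above background. Rps4x, the X-linked gene of a small-subunit protein, had 0.15, −0.53 and −0.49.

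**Figure D4:**
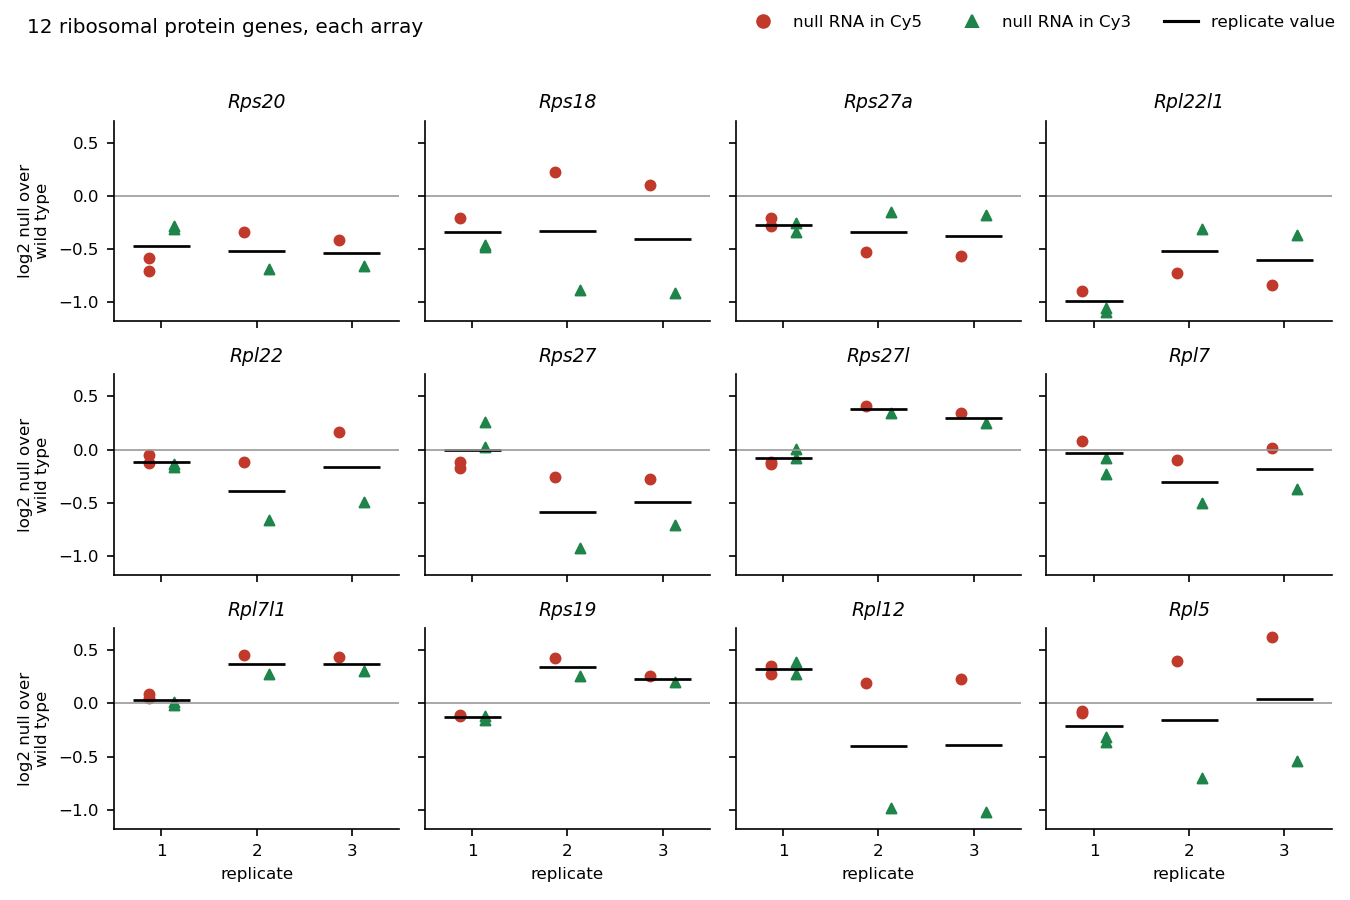
Log2 ratios of null over wild type (y axis) of 12 ribosomal protein genes by replicate (x axis), after loess; circles are arrays with null RNA in Cy5, triangles arrays with it in Cy3 and bars the replicate values. Rps20 and Rpl22l1 lie below 0 on every array with a value, Rps27l, Rpl7l1 and Rps19 lie above 0 on the 4 arrays of slide 2, and Rpl5 and Rpl12 change side with the dye on slide 2.

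Rps18 and Rps27a were among the 5 members with the smallest p. Rps18, of the small subunit's head, had −0.34, −0.33 and −0.40, a mean of −0.36 ± 0.04 (SD, n = 3), but its 2 arrays of slide 2 with null RNA in Cy5 read 0.22 and 0.11 against −0.89 and −0.91 in Cy3. For this probe the replicate values of slide 2 are thus means of arrays with opposite signs. A second Rps18 probe, not tested because it lacked a value for replicate 3, had −0.00 and −0.54 in replicates 1 and 2. In replicate 2 it read −0.54 with null RNA in Cy5 and −0.55 in Cy3, so the 2 probes differed. Rps27a, which is made as a fusion with ubiquitin, had −0.27, −0.34 and −0.38 (mean −0.33 ± 0.05, SD, n = 3) and was below 0 on all 8 arrays. It was one of the dimmer members at a log2 intensity of 12.5. Its adjusted p was 0.279 (limma), and with median centring its mean was −0.07.

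Rpl37a and Rpl36a of the large subunit were the other genes among the lowest means. Rpl37a had −0.22, −0.52 and −0.65, with 0.09 and 0.10 in Cy5 and −1.14 and −1.40 in Cy3 on slide 2. Rpl36a had −0.25, −0.50 and −0.61 and was below 0 on all 8 arrays, and of its 2 other probes one had a mean of −0.53 and the other 0.13. In all, 24 member genes had more than 1 tested probe, and in 6 of them, Rpl31, Rpl36a, Rps15a, Rps21 and Rps3 included, the probes had means of both signs. Many ribosomal protein genes have processed pseudogenes of nearly the same sequence, and a probe reads all transcripts that match it.

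Rpl10, which joins the large subunit late, had −0.25, −0.32 and −0.18, below 0 on all 8 arrays. Rps19, the gene most often mutated in Diamond-Blackfan anaemia, had −0.13, 0.34 and 0.23, with every array of slide 1 below 0 and every array of slide 2 above 0; its log2 intensity of 11.0 makes it one of the dimmer members. Its difference between slides was 0.41, on the same side as those of Rps27l and Rpl22l1. Rps10, another gene of that anaemia, went the other way with 0.47, −0.20 and −0.16, and Rpl41, which encodes the shortest ribosomal protein, had 0.46, −0.43 and 0.07.

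Rps6, the substrate of S6 kinase, was not tested because its dye-swapped arrays of replicate 1 were set aside as outlier spots. Replicates 2 and 3 gave −0.25 and −0.38, and the 2 usable arrays of replicate 1, both with null RNA in Cy5, gave 0.51 and 0.48. Rpl3 lacked a value for replicate 2 and had −0.07 and −0.10 in replicates 1 and 3.

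The remaining members filled the space between these patterns, and the following were picked with their values in view. A first kind was above 0 in replicate 1 and below 0 in both others: Rpl9 had 0.14, −0.51 and −0.51, Rpl32 had 0.15, −0.46 and −0.51, Rpl38 had 0.12, −0.45 and −0.60, and Rps29 had 0.11, −0.45 and −0.53. Rpl38, known for its part in the translation of Hox mRNAs, was above 0 on slide 1 and among the lowest members in replicate 3. Rps24, another gene of Diamond-Blackfan anaemia, had 0.38, −0.31 and −0.31. In 59 of the 78 genes replicate 1 was the highest of the 3 replicates, and in 13 it was the lowest.

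Those 13 include Rpl22l1, Rps19, Rps27l and Rpl7l1 as well as genes that were low in replicate 1 itself. Rpl19 had −0.47, −0.41 and −0.03, Rpl18 had −0.38, −0.10 and −0.06, and Rps26 had −0.38, −0.27 and 0.04. A brighter Rpl19 probe, which was not tested, gave 0.19 and 0.14 on the replicate 1 arrays with null RNA in Cy3. The tested Rpl19 probe gave −0.34 and −0.28 there. Rps26 is a further gene of that anaemia. A last kind barely moved over replicates: Rpl27 had −0.04, −0.06 and −0.03 and Rpl29 had −0.15, −0.18 and −0.19, but the arrays of Rpl29 on slide 2 gave 0.16 in Cy5 in both replicates and −0.51 and −0.53 in Cy3. Close replicate values therefore did not mean close arrays.

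Genes that share the TOP tract without being ribosomal proteins, such as elongation factors, followed the replicates in the same order. Of 24 listed, 23 were tested; their medians were 0.07, −0.24 and −0.23 in replicates 1, 2 and 3, with a median of means of −0.12 after loess, −0.06 with the processed signals and 0.15 with median centring. None passed the adjusted threshold and 4 of the 23 had an unadjusted p under 0.05 in limma's test, each below 0. Among all tested probes 17.2% had such a p, 8.15% below 0. The initiation factor genes Eif3h, Eif4b and Eif3f had −0.27 ± 0.08, −0.64 ± 0.44 and −0.30 ± 0.18 (SD, n = 3). Eif3h was below 0 on all 8 arrays, and Eif4b was low on slide 2 above all, with −0.14, −0.95 and −0.83.

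Partners that escort ribosomal proteins to their place in the ribosome had medians above 0. Of 16 listed, 15 were tested and 11 had a mean above 0 (51.3% of all tested probes), with medians of 0.06, 0.23 and 0.20 in the 3 replicates. Again 0 passed the adjusted threshold, and 2 of the 15 had an unadjusted p under 0.05 (limma), both above 0. Among all tested probes 17.2% had such a p, 9.02% above 0. Bccip, known as a chaperone of Rpl23, had 0.14, 0.33 and 0.25, and Rps19bp1, a binding partner of Rps19, had 0.14, 0.27 and 0.27. Pdcd2, a chaperone of Rps2, had 0.06, 0.31 and 0.35.

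Of 10 listed genes that signal to ribosomal protein mRNAs, 8 were tested; 0 passed and 2 had an unadjusted p under 0.05 (limma; 17.2% of all tested probes). Rps6kb1, which encodes S6 kinase, had 0.25, 0.55 and 0.40, above 0 on all 8 arrays, and Eif4ebp1, which encodes an mTORC1-regulated translation repressor, had −0.20, −0.69 and −0.74, below 0 on all 8. Mycn had 0.05, −0.33 and −0.44. Of the 4 genes of the p53 axis that ribosomal proteins act on, Cdkn1a, the p53-induced cell cycle inhibitor, had −0.27, −1.24 and −1.16, and Mdm4, the partner of Mdm2, had 0.02, −0.08 and −0.08. Cdkn1a had an adjusted p of 0.279 and 0 of the 4 passed, with 2 at an unadjusted p under 0.05 (limma; 17.2% of all tested probes).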

How the data were processed

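Spot and background brightness were deposited by the authors as linear intensity, with processed signals and a log10 ratio of red over green beside them (Agilent Feature Extraction, by the file headers version 10.5.1.1 and by the submitters' processing notes 6.1). The deposited value table is the same log10 ratio with null as numerator (correlation 1 for all 8 arrays; column medians 0.0083, −0.0024, 0.0042 and 0.0015 for replicate 1, 0.00083 and 0.0064 for replicate 2, 0.0064 and 0.011 for replicate 3), so its scale, centring and direction are settled. From median spot and background signals, ratios were made with normexp (offset 50) and loess in limma 3.58.1 (R 4.3.3). The 1639 control spots had weight 0, outlier spots were set to missing, and probes spotted repeatedly were averaged. Arrays were turned to log2 null over wild type and averaged within dye arrangement, then within replicate. This offset makes the ratios of dim probes smaller.

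Kept were 20880 of 41174 probes, those where the same genotype cleared background on 50% or more of each replicate's arrays; 20865 had 3 values and were tested against 0 with limma (two-sided), with Benjamini-Hochberg adjustment over all of them. A sign permutation over 3 replicates cannot go below p = 0.25. Probes were named by RefSeq accession through the GRCm38.p6 annotation (25097 named); the array design is on mm9 per the file headers, so the only coordinates printed are those of RefSeq start sites. The fit was tested on simulated data.

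Members and lists were chosen with earlier results of these data known, and the lists have no test of their own. Named members were the Mdm2 binders, the stalk proteins and Rpsa, paralog pairs, the 5 highest and 5 lowest means, the 5 smallest p, the 3 largest slide differences each way, Rps6, Rps19 and Rpl10, and up to 3 genes of each companion list by smallest p; other members, named beside a count, were picked with their values in view. A few member genes are not reported here by name, and they stayed in every fit, count and median. The alternatives changed the background step, normalization, filter, replicates, slide and dye terms, and the probe of a gene; the 2 single-dye fits and the one that counts replicates 2 and 3 as 1 were added after seeing the data.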

Additional observations from a re-analysis of the deposited data

How the results depend on the processing

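Of the settings run, 0 ribosomal protein genes passed limma's adjusted threshold under each one except 3. Without replicate 1, 68 passed (11699 of all tested probes), with slide as a fixed block 45 (8521 of all) and with the 8 arrays as units, dye as a term and replicate as a random block 2 (1136 of all). Leaving out each replicate in turn gave 0 to 68 for these genes and 0 to 11699 for all probes, 0 to 15 for the other TOP genes, 0 to 9 for partners and importers, 0 to 5 for signalling and 0 to 2 for the p53 axis, the higher count always being that without replicate 1. Slide as a fixed block gave 7, 10, 5 and 2 for these 4 lists, and the 8 arrays as units gave 1, 0, 2 and 1. Slide as a random block over the 3 replicate values could not be fitted. No paired analysis was possible because the labels hold 1 group of ratios, in which each array already pairs the genotypes.

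The median over ribosomal protein genes ran from −0.30 without replicate 1 to −0.16 without replicate 2, and was −0.10 with the processed signals or the deposited table, −0.04 with null RNA in Cy5 only and −0.37 with it in Cy3 only (−0.39 for the large subunit). Median centring without loess, which moved the median of all probes to 0.12, gave 0.11 for these genes, 0.11 for the large and 0.0873 for the small subunit, 0.15 for the other TOP genes, 0.35 for partners, 0.29 for signalling and −0.23 for the p53 axis, with a dye effect of 1.4; the p53 axis had −0.50 with the processed signals or the deposited table. By replicate the median over ribosomal protein genes was 0.00, −0.31 and −0.29, and −0.00, −0.17 and −0.16 with the processed signals or the deposited table. The cause of this difference between replicates was not tested.

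Signs turned under median centring for Eif3h (0.0326), Mdm4 (0.0588), Mycn (0.012), Rpl10 (0.049), Rpl11 (0.0357), Rpl12 (0.16), Rpl22 (0.0823), Rpl23 (0.11), Rpl26 (0.12), Rpl37 (0.0525), Rpl39 (0.0113), Rpl5 (0.21), Rpl7 (0.11), Rplp0 (0.076), Rplp1 (0.13), Rps15 (0.28), Rps25 (0.0583), Rps3 (0.0873) and Rps7 (0.0338), and for Rpl5 with the processed signals or the deposited table (0.057). With null RNA in Cy5 only they turned for Mycn (0.0572), Rpl12 (0.24), Rpl23 (0.0462), Rpl26 (0.13), Rpl5 (0.31), Rplp1 (0.0643), Rps14 (0.17) and Rps18 (0.0387), and with it in Cy3 only for Mdm4 (0.0015), Rpl41 (−0.55), Rps10 (−0.10) and Rps15 (0.0363). Leaving out a replicate gave −0.18 to 0.27 for Rpl41, −0.18 to 0.16 for Rps10 and −0.0747 to 0.0476 for Rps15. With slide as a fixed block, or replicates 2 and 3 counted as 1, Rps15 had 0.0339, and with the 8 arrays as units Rps15 had 0.0018. The 3 replicates on 2 slides limit the precision.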
